A study of Mus musculus with 12 samples.

Results

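Whether the transcriptional response of cultured mouse osteoclasts to material from necrotic osteocytes differed when the receptor Mincle was missing was asked gene by gene, as the genotype by supernatant interaction. The interaction is the response of knockout cells (necrotic minus viable osteocyte supernatant) minus the response of wild-type cells, on a log2 scale. A negative value means that a gene rose less, or fell more, in knockout than in wild-type cells when necrotic replaced viable supernatant. All 12 of the 12 libraries entered it, and it was read over every expressed gene, which left 14153 of the 46983 genes in the count table.

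Mincle, encoded by Clec4e, is a lectin receptor on monocytes, macrophages and their kin that binds a nuclear protein released by dying cells, besides microbial glycolipids. It has no signalling motif of its own and pairs with the Fc receptor gamma chain (Fcer1g), whose ITAM recruits the kinase Syk, which signals through the CARD9, BCL10 and MALT1 complex to NF-kB. The same ITAM adaptors provide the co-stimulation that, together with RANK signalling, drives osteoclast formation from myeloid precursors.

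The osteoclasts were grown from bone marrow derived monocytes of C57BL/6 wild-type (WT) or Mincle knockout (KO) mice. All 4 groups were cultured with M-CSF (20 ng/ml) and RANKL (10 ng/ml), were given supernatant in a 1:2 ratio on day 1 for 24 h, and were harvested on day 3. WT viable and KO viable received supernatant of viable osteocytes, and WT necrotic and KO necrotic received supernatant of osteocytes made necrotic by withdrawal of serum. Each group held 3 libraries, and the labels do not say whether these came from separate mice or cultures, so p-values measure the spread between these libraries, which may be technical. No group received starvation medium that had not been on osteocytes, and the labels give the knockout as a genotype without its allele. RNA of whole wells was sequenced, so fewer cells of a type and less RNA per cell cannot be told apart. Libraries held 16382366 to 49612055 counts, with WT viable replicate 3 the deepest and all others at or under 25429661.

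Clec4e itself (chromosome 6, 123281789 to 123289870, reverse strand, GRCm38) separated the genotypes in every library. Its level was a CPM of 22.8, 23.7 and 26.1 in WT viable, 27.8, 21.9 and 25.4 in WT necrotic, 1.63, 1.57 and 2.43 in KO viable and 1.98, 1.56 and 2.29 in KO necrotic, where CPM is the gene's count relative to the scaled total of its library. The WT and KO libraries did not overlap, and viable and necrotic libraries overlapped within each genotype. The average genotype effect on Clec4e was -3.67 (SE 0.11, adjusted p = 2.40e-12) on the log2 scale by edgeR's quasi-likelihood test with Benjamini-Hochberg adjustment. The response of Clec4e to necrotic supernatant was 0.04 in WT and 0.03 in KO, neither past an adjusted p of 0.05, and the interaction was -0.01 (95% interval -0.51 to 0.49).

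No gene passed the test of a difference in response between the genotypes. The interaction called 0 of 14153 genes (0%) at an adjusted p under 0.05 in edgeR. The smallest adjusted p was 0.571. At an unadjusted p under 0.05 it held 1064 genes (7.52%), of which 563 (3.98%) were higher and 501 (3.54%) lower in KO. DESeq2 called 0 genes, with 813 at an unadjusted p under 0.05, and limma voom called 0, with 1142. One setting changed the count: without the filter on low counts 209 genes passed, and 46 passed with a robust estimate of the spread, while limma voom without that filter called 0. Of the 209 genes, 206 were also in the filtered table and their median level was 39.9 CPM.

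The intervals show how large a dependence on Mincle these libraries could have missed. The standard error of the interaction had a median of 0.122 log2 units over all genes and 0.0942 over the 8987 genes with a mean of at least 10 CPM. The 95% interval lay within 1 log2 unit of 0 for 11485 genes (81.1%), and among genes of at least 10 CPM it lay within 0.5 log2 units of 0 for 8221 (91.5%). A fitted interaction past 2-fold was seen in 239 genes (1.69%), 67 of them with a mean of at least 1 CPM. A gene with the median standard error would have needed an interaction of 0.857 to be the single gene called. Genes with a smaller standard error, 0.0736 at the median of the 2237 genes of at least 100 CPM, would have needed less, as would several genes passing together.

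A response was measured in both genotypes. Averaged over the genotypes, necrotic supernatant changed 2749 of 14153 genes (19.4%), 1343 upward (9.49%) and 1406 downward (9.93%), by edgeR. With the spread shared by all 12 libraries, the WT response called 1318 genes (9.31%) and the KO response 1052 (7.43%). Fitted on the 6 libraries of its own genotype the order of these counts turned, with 359 genes called in WT and 1820 in KO. The counts with a shared spread also depended on single libraries: WT calls numbered 2015 without WT viable replicate 1, 385 without replicate 2 and 603 without replicate 3 of that group, and 528 without WT necrotic replicate 2. KO calls numbered 383 to 647 when any of its 6 libraries was left out. No library is shared between these 2 responses, and 504 genes were called in both in the same direction and 0 in opposite directions, out of 1866 called in either. Of the 681 genes that rose in WT, 95.01% had a positive response in KO, and of the 637 that fell, 94.98% had a negative one. In the other direction the shares were 95.9% of the 566 genes that rose in KO and 96.3% of the 486 that fell, against 67.8% of all genes tested with the same sign in both. Across the 8987 genes of at least 10 CPM the responses had a Pearson correlation of 0.607, and across all 14153 genes 0.401, which describes genes that share libraries within each genotype.

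**Figure D1:**
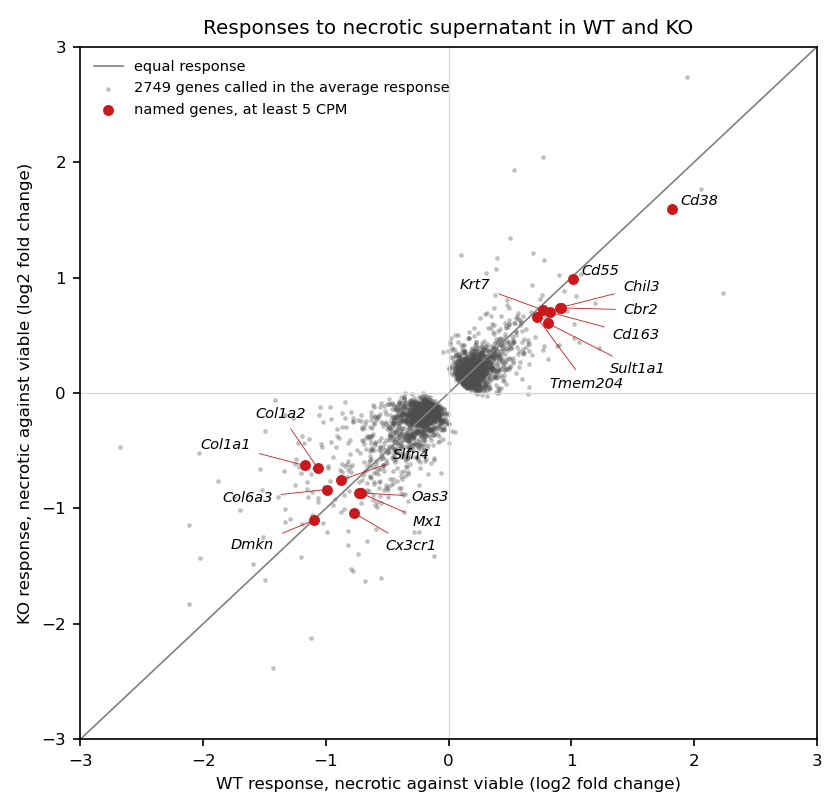
Response to necrotic supernatant in KO (vertical axis) against WT (horizontal axis), each as log2 fold change of necrotic over viable, for 2749 genes called in the average response (grey points; 2 lie outside the axes) with 16 named genes in red and a line of equal response. The points follow the line on both sides of 0, and choosing genes by the average response keeps points out of the other 2 quadrants.

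The 2749 genes of the average response were used to ask whether the response as a whole was weaker without Mincle. With 3 libraries in each group, the average and the interaction are separate estimates only if the spread is also equal in WT and KO. Equal spread was not tested, and fits on the 6 libraries of each genotype called 359 genes in WT and 1820 in KO. Under unequal spread, choosing and turning genes by the average can itself shift the interaction of these genes and of their score. Turned so that the average response is positive, the median response was 0.225 in WT and 0.211 in KO. The median interaction was -0.0134, against -0.0115 for all tested genes turned the same way. The response was weaker in KO for 1484 genes (54.0%) and stronger for 1265, and 52.8% of all tested genes were on the weaker side. An unadjusted interaction p under 0.05 in edgeR was seen in 250 of the 2749, 143 weaker and 107 stronger in KO. Over all 14153 genes it was seen in 1064, 568 weaker and 496 stronger. Opposite signs in WT and KO were seen in 13 of the 2749 and in 4555 of all 14153 tested genes. Choosing genes by the average response keeps such genes out, so the 13 are no measure of agreement. The genes that rose had medians of 0.209 in WT and 0.204 in KO, and those that fell 0.249 and 0.220. Among the 46 genes with an average change of at least 2-fold the medians were 1.33 in WT and 1.14 in KO, with 28 weaker and 18 stronger in KO.

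Each library was also given a score, the mean shift of the 2749 genes from WT viable in the direction of the average response. The score was 0.0601, -0.0427 and -0.0174 in WT viable, 0.296, 0.315 and 0.255 in WT necrotic, -0.0646, -0.0780 and -0.0801 in KO viable, and 0.193, 0.180 and 0.212 in KO necrotic. Both viable groups lay below both necrotic groups, a separation that the choice and signs of the genes from these same libraries build in. Each KO group lay below its WT counterpart with no overlap. The response was 0.289 in WT and 0.269 in KO, so the KO value was 93.2% of the WT value. The interaction of the score was -0.0195 (SE 0.0371, 95% interval -0.105 to 0.0661), from the pooled spread of the libraries. It was -0.0098 (SE 0.0262) for the genes that rose and -0.0287 (SE 0.0510) for those that fell.

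**Figure D2:**
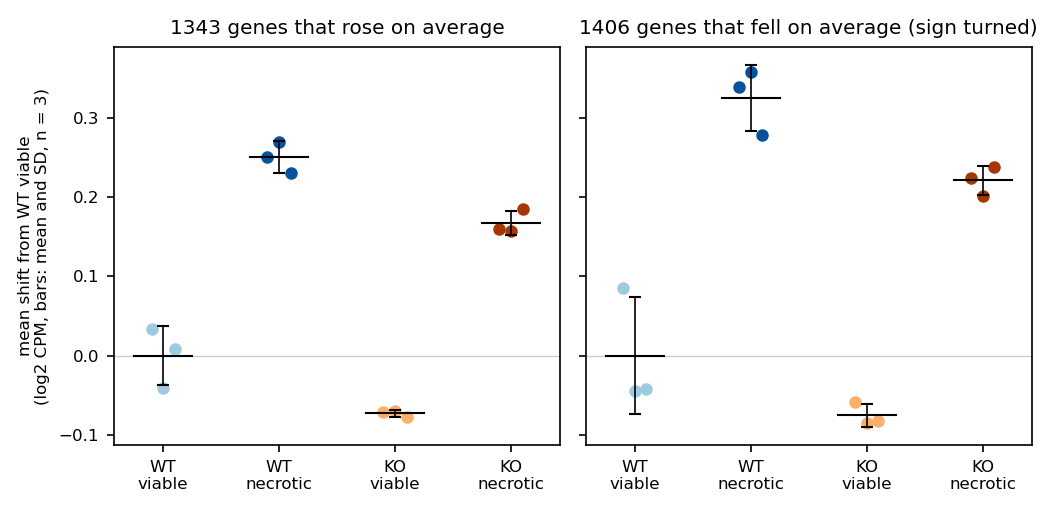
Mean shift from WT viable in log2 CPM for each library (points), with group mean and SD (bars, 3 libraries each), over the 1343 genes that rose (left) and the 1406 that fell on average (right, sign turned). The step from viable to necrotic is of like height in WT and KO, and the KO groups start and end lower.

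Genes with the largest average response had fitted responses of the same sign in both genotypes, which choosing them by that average favours. Cd38, an ectoenzyme that consumes NAD, had a CPM of 3.70, 2.22 and 3.95 in WT viable, 12.5, 10.8 and 12.9 in WT necrotic, 3.25, 3.57 and 3.72 in KO viable and 10.6, 10.7 and 10.8 in KO necrotic. Viable and necrotic libraries did not overlap in either genotype, which held for 24.3% of all genes in WT and 31.3% in KO. Cd38 rose by 1.82 (SE 0.15, adjusted p = 1.25e-05) in WT and by 1.60 (SE 0.15, adjusted p = 7.36e-05) in KO in edgeR, and its interaction was -0.22 (95% interval -0.68 to 0.23). Cd55, a membrane inhibitor of complement, had a CPM of 40.9, 33.0 and 38.9 in WT viable, 74.9, 79.7 and 74.5 in WT necrotic, 32.4, 40.1 and 41.9 in KO viable and 76.8, 72.5 and 78.1 in KO necrotic. Viable and necrotic libraries were again apart, by 2.02-fold in WT and 1.99-fold in KO, and the interaction was -0.03 (95% interval -0.28 to 0.23). The chitinase-like gene Chil3 rose by 0.91 in WT and 0.74 in KO, with an interaction of -0.17 (95% interval -0.40 to 0.06), and the carbonyl reductase Cbr2 by 0.92 and 0.74. The haemoglobin scavenger receptor Cd163, the keratin Krt7, the sulfotransferase Sult1a1 and Tmem204 rose in both genotypes as well, by 0.72 to 0.82 in WT and 0.61 to 0.72 in KO. For each of these 8 genes the fitted KO response was smaller than the WT response, and each interaction interval included 0.

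Among genes that fell, Dmkn had a CPM of 19.3, 19.9 and 18.5 in WT viable, 7.90, 7.47 and 11.2 in WT necrotic, 13.3, 9.57 and 12.4 in KO viable and 5.81, 5.51 and 5.17 in KO necrotic. Every necrotic library lay below every viable library of its genotype, and the response was -1.09 in WT and -1.10 in KO. The fractalkine receptor Cx3cr1 fell in both, with responses of -0.77 (SE 0.10, adjusted p = 0.000615) in WT and -1.04 (SE 0.11, adjusted p = 9.89e-05) in KO, with an interaction of -0.27 (95% interval -0.58 to 0.05). The interferon-induced genes Mx1, Oas3 and Slfn4 fell in both genotypes, with interactions of -0.15, -0.13 and 0.12. The collagen genes Col1a1, Col1a2 and Col6a3, which are products of stromal cells, also fell on average, although the calls of Col1a2 and Col6a3 were lost without the filter under a robust spread, at adjusted p of 0.139 and 0.0875 in edgeR. Col1a1 had a CPM of 26.6, 32.6 and 15.6 in WT viable, 7.04, 13.4 and 11.8 in WT necrotic, 12.2, 9.51 and 3.64 in KO viable and 3.68, 8.63 and 4.18 in KO necrotic. KO viable lay below WT viable, with overlap between viable and necrotic in KO, and the interactions of Col1a2 and Col6a3 were 0.41 and 0.16. The interaction of Col1a1 was 0.54 (95% interval -0.63 to 1.72), the widest interval of the named responders, and its average call was lost in DESeq2, in limma voom and in 6 of the 12 fits without 1 library. The 17 stromal, bone and osteocyte markers together summed to a CPM of 91.8 to 137 in WT viable, 46.6 to 72.0 in WT necrotic, 34.0 to 70.7 in KO viable and 26.5 to 53.7 in KO necrotic, so that WT viable lay above the other groups, and its part in the responses was not tested.

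**Figure D3:**
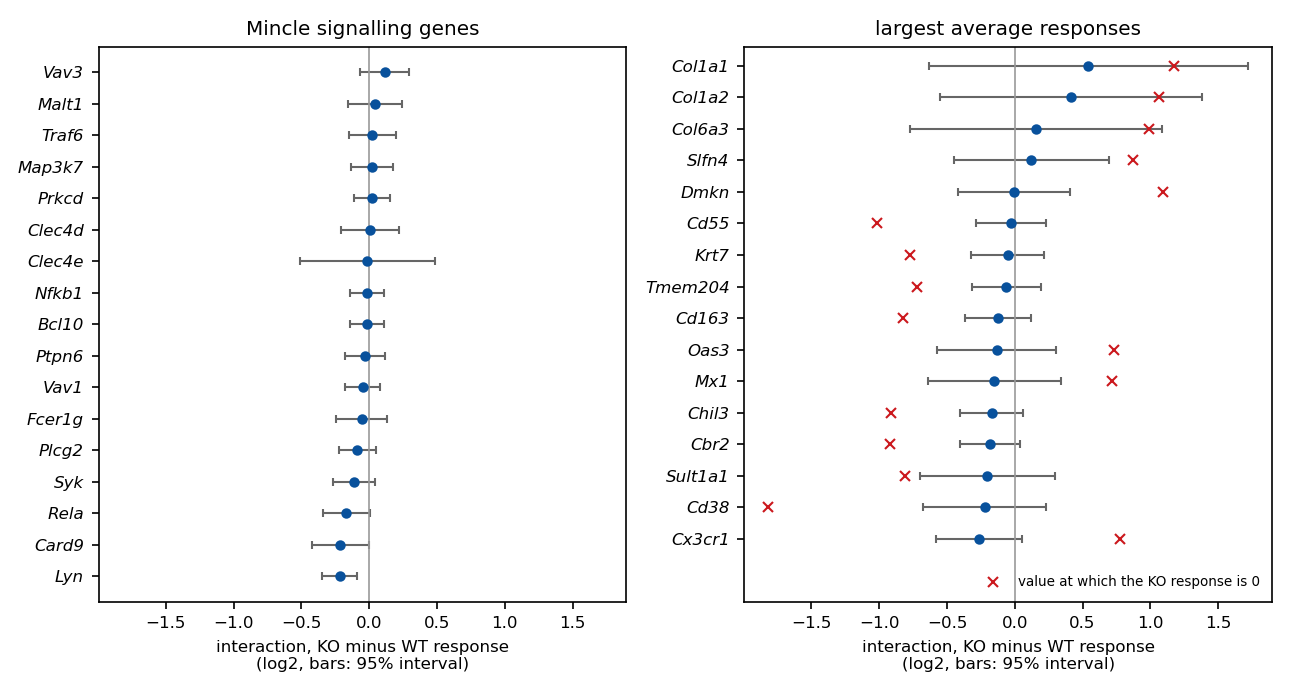
Interaction (KO minus WT response, log2) with its 95% interval for the 17 Mincle signalling genes (left) and the 16 named genes with the largest average response (right). Red crosses mark the interaction at which the KO response would be 0 given the fitted WT response. The interval reaches the cross for Col1a1, Col1a2 and Col6a3 and for none of the other genes on the right. The cross leaves out the error of the WT response, and the genes were chosen by the average of both responses. Its distance from the interval is therefore no test of the KO response.

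The components of the Mincle pathway other than Clec4e, which was strongly lowered in KO, were expressed in every group. Of the pathway's 17 genes, Clec4e among them, none passed for the interaction (background 0%). At an unadjusted p under 0.05, 2 were lower and 0 were higher, and the median was -0.0167 against 0.00679 over all genes. Lyn, a Src-family kinase that phosphorylates ITAMs (chromosome 4, 3678115 to 3813122, forward strand), had a CPM of 169, 170.2 and 178 in WT viable, 199, 203 and 212 in WT necrotic, 189, 179.5 and 188 in KO viable and 185, 189 and 193 in KO necrotic. Its WT necrotic libraries stood above all 9 others, and the KO viable and KO necrotic libraries overlapped. Lyn rose in WT by 0.25 (SE 0.043, adjusted p = 0.00361), its KO response was 0.03 (SE 0.043, adjusted p = 0.75), and the interaction was -0.22 (95% interval -0.35 to -0.09), with an unadjusted p of 0.00284 and an adjusted p of 0.571 in edgeR. The adaptor Card9 had a CPM of 66.6, 55.9 and 55.8 in WT viable, 60.1, 64.6 and 57.8 in WT necrotic, 66.8, 60.2 and 62.9 in KO viable and 54.6, 55.7 and 57.9 in KO necrotic, with overlapping WT libraries and KO necrotic libraries all under the KO viable ones. Neither of its responses passed, and its interaction was -0.21 (95% interval -0.42 to -0.00391).

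The adaptor and kinase next to the receptor differed little. Fcer1g responded by 0.14 in WT and 0.09 in KO, with an interaction of -0.06 (95% interval -0.25 to 0.13), and Syk by 0.03 and -0.08, with an interaction of -0.11 (95% interval -0.27 to 0.04). None of these 4 responses passed. Prkcd, Plcg2 and Malt1 fell in both genotypes. The kinase Prkcd, which links Syk to CARD9, had responses of -0.29 (SE 0.044, adjusted p = 0.00149) in WT and -0.27 (SE 0.044, adjusted p = 0.00231) in KO. The phospholipase Plcg2 had responses of -0.17 and -0.25, and the protease Malt1 of -0.29 and -0.25. Their interactions were 0.02, -0.09 and 0.04. Bcl10 had an interaction of -0.02 (95% interval -0.14 to 0.11) and Clec4d, the neighbouring lectin that pairs with Mincle, of -0.21 to 0.22 as its 95% interval.

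The 10 genes with the smallest p on each side, at a mean of at least 1 CPM and with a full gene name, are described here. None passed with the filter on low counts, where all had an adjusted p of 0.571 in edgeR. In an edgeR fit without that filter, Dynlt1c, Fcgr2b, Gpr141, F10, Zyx, Tnfrsf1b, Ube2n-ps1, Zranb2, Timm23, Rpl30 and mt-Nd3 passed. Their smallest adjusted p ran from 9.70e-12 for Dynlt1c to 0.0372 for Fcgr2b, and the rest passed in no fit. The 10 with the lower KO response were Dynlt1c (-1.21), Zfp414 (-0.51), Fcgr2b (-0.29), Csf2rb2 (-0.28), Strada (-0.37), Gpr141 (-0.39), Pltp (-0.27), F10 (-0.54), Zyx (-0.36) and Tnfrsf1b (-0.35), as log2 interactions. Fcgr2b, the inhibitory Fc gamma receptor (chromosome 1, 170958617 to 170976547, reverse strand), had a CPM of 147, 134 and 153 in WT viable, 168, 180.03 and 176 in WT necrotic, 177, 176 and 178 in KO viable and 176, 175 and 173 in KO necrotic. The WT viable libraries stood below all 9 others, and the KO viable libraries were within the range of WT necrotic. Fcgr2b rose by 0.27 (SE 0.048, adjusted p = 0.00423) in WT, and its KO response was -0.02 (SE 0.048, adjusted p = 0.868).

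Csf2rb2, a beta chain of the interleukin 3 receptor, showed another pattern, with a CPM of 77.3, 79.4 and 76.7 in WT viable, 74.9, 74.1 and 77.5 in WT necrotic, 94.0, 92.8 and 93.1 in KO viable and 73.4, 79.8 and 71.3 in KO necrotic. Its KO viable libraries stood above all 9 others, which overlapped among themselves. Its WT response was -0.04 (SE 0.047, adjusted p = 0.632), and it fell in KO, with a response of -0.32 (SE 0.047, adjusted p = 0.00103). Tnfrsf1b, a TNF receptor, had a CPM of 289, 273 and 286 in WT viable, 251, 282 and 288 in WT necrotic, 366, 374 and 346 in KO viable and 276, 298 and 251 in KO necrotic, and the orphan receptor Gpr141 had a CPM of 36.3, 42.2 and 41.2 in WT viable, 43.0, 43.7 and 37.9 in WT necrotic, 52.6, 51.9 and 49.9 in KO viable and 40.5, 39.0 and 42.2 in KO necrotic. In both, KO viable was again the group that stood above all others, and the KO response passed while the WT response did not. Pltp, which transfers phospholipids, was lowest in KO necrotic, with a CPM of 203, 207 and 221 in WT viable, 201, 217 and 215 in WT necrotic, 191, 183 and 182 in KO viable and 155, 158 and 149 in KO necrotic. F10, which encodes coagulation factor X, was highest in WT necrotic, at 16.9 to 20.9 CPM against 13.1 to 16.7 CPM in the other 9 libraries.

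The 10 with the higher KO response were Ube2n-ps1 (1.44), Snx7 (0.44), Zranb2 (0.34), Timm23 (0.40), Pcna (0.25), Rpl30 (0.40), Vbp1 (0.27), Tomm20 (0.21), Erh (0.21) and mt-Nd3 (1.28). Timm23 and Tomm20 encode subunits of the machinery that imports proteins into mitochondria. Tomm20 had a CPM of 151, 149 and 149 in WT viable, 153, 148 and 148 in WT necrotic, 127, 137 and 133 in KO viable and 155, 149.96 and 154 in KO necrotic. Its KO viable libraries stood below all 9 others, and the KO necrotic libraries lay in the range of WT or just above it. It rose in KO by 0.21 (SE 0.040, adjusted p = 0.00666), and its WT response was under 0.01 in size. Timm23 had a CPM of 55.9, 53.7 and 54.2 in WT viable, 54.2, 51.2 and 53.4 in WT necrotic, 45.7, 48.6 and 51.5 in KO viable and 57.5, 71.2 and 58.6 in KO necrotic, and its KO necrotic libraries stood above all others. Pcna, the sliding clamp of DNA replication, and the splicing factor Zranb2 were highest in WT viable, with an interaction of 0.25 (95% interval 0.11 to 0.39) for Pcna and 0.34 (95% interval 0.16 to 0.52) for Zranb2. Ube2n-ps1 is a pseudogene of Ube2n, Dynlt1c has near-identical neighbours, and Rpl30 has processed copies. How the authors' counting treated reads that match such copies was not examined, so these values are uncertain. Ube2n-ps1 and mt-Nd3 were also under 6 CPM, which makes their values uncertain too.

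The position of the 4 groups differed among these 20 genes. In the 10 genes with negative interactions, the libraries of KO viable all lay above the other 9 in 3 genes, those of WT viable all below in 1, those of WT necrotic all above in 1 and those of KO necrotic all below in 1. In the 10 with positive interactions, WT viable lay above in 4, KO viable below in 3, KO necrotic above in 2 and WT necrotic below in 1. Over all 14153 genes, the libraries of 1 group lay all above or all below the other 9 in 3.25% for WT viable, 8.39% for WT necrotic, 10.8% for KO viable and 2.87% for KO necrotic. The 20 genes were chosen by the interaction, which favours genes with 1 group apart, so these counts are descriptions.

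**Figure D4:**
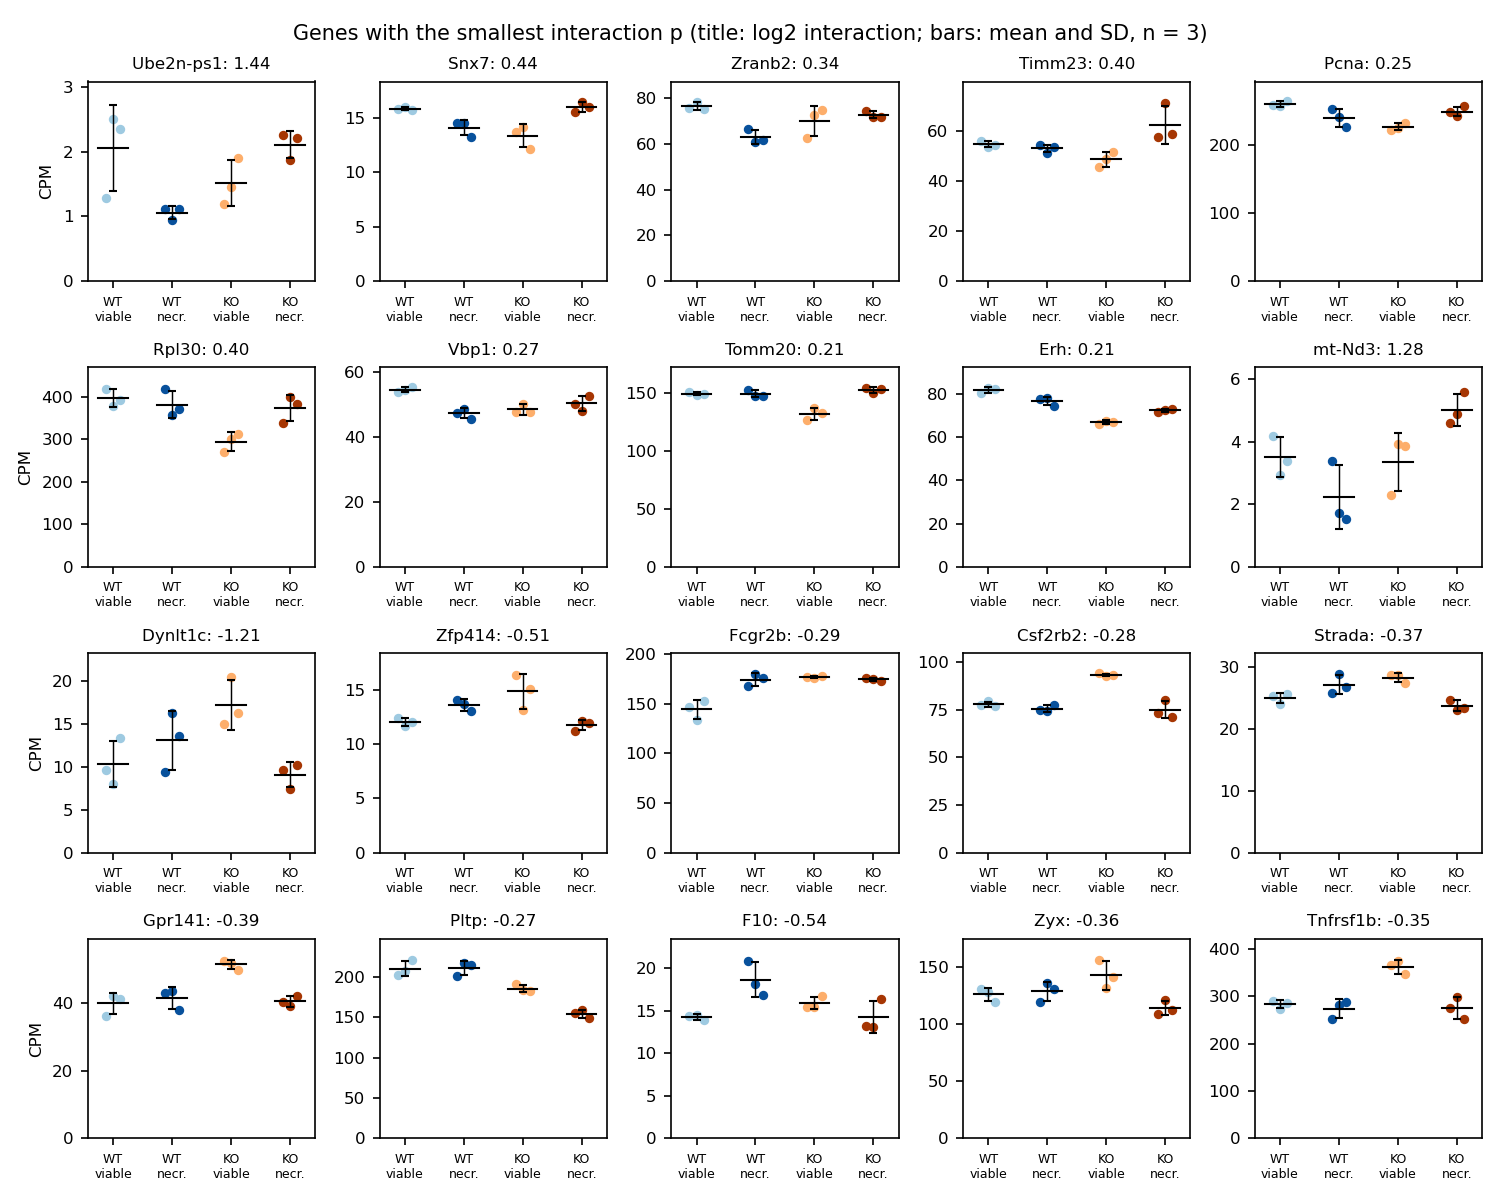
CPM of each library (points) with group mean and SD (bars, 3 libraries each) for the 10 genes with the smallest interaction p higher in KO (upper rows) and lower in KO (lower rows), with the log2 interaction in each title. KO viable is the group apart in Csf2rb2, Gpr141, Tnfrsf1b, Rpl30, Tomm20 and Erh, and WT viable in Fcgr2b, Zranb2, Pcna, Vbp1 and Erh.

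Of 34 gene lists with 649 memberships, no list held a gene called for the interaction with the filter on low counts (background 0%). The lists are therefore described by signs, medians and unadjusted p. Genes named from a list were its up to 3 members with the smallest interaction p. That choice favours intervals that exclude 0, so these genes do not stand for their list. Over all 14153 genes, the background for every list, 7327 were higher and 6826 lower. At an unadjusted p under 0.05, 3.98% of all genes were higher and 3.54% lower. ITAM and calcium signalling, the wider group of receptors and adaptors around this pathway, had a median interaction of -0.0599 over 27 genes, with 7 higher, 20 lower and 6 lower at an unadjusted p under 0.05. The activating Fc receptor Fcgr3 (chromosome 1, 171051174 to 171064935, reverse strand) had a CPM of 385, 337 and 361 in WT viable, 473, 539 and 469 in WT necrotic, 422, 391 and 389 in KO viable and 448, 437 and 419 in KO necrotic. All 3 WT necrotic libraries exceeded the other 9, and Fcgr3 rose by 0.45 (SE 0.064, adjusted p = 0.000841) in WT against 0.12 (SE 0.064, adjusted p = 0.304) in KO, with an interaction of -0.33 (95% interval -0.53 to -0.14). The inhibitory receptor Pirb had an interaction of -0.25. Among 9 C-type lectin genes beside Clec4e the median was -0.0750, with Clec4a1 at -0.24 (95% interval -0.38 to -0.09). That median was -0.186 with length and GC trends removed, and over the left-out libraries it ranged from -0.167 without WT necrotic replicate 3 to -0.0235, with 4 higher and 5 lower, without WT necrotic replicate 2. Fcgr3 was among the genes called without the filter on low counts under a robust spread, at an adjusted p of 0.0412, and Fcgr2b was called there only without the robust estimate. Members of unlike lists also passed in an edgeR fit without the filter. Among them, mt-Co3, Cox7a2, Rps19 and Retnla were higher in KO, and Zfp36, Mmp8, Gstm1, Clec10a and Ighm were lower.

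The 11 genes of MHC class II presentation had the lowest median interaction of the 27 functional lists, -0.272, with 10 lower and 1 higher. At an unadjusted p under 0.05, 3 were lower (3.54% of all genes). On average 7 of the 11 fell and 0 rose, against 9.93% and 9.49% of all genes, and the median response was -0.40 in WT and -0.82 in KO. Without KO necrotic replicate 1 the median interaction was -0.165, and without WT necrotic replicate 2 it was -0.169. The mean response of the class II list was -0.33 in WT and -0.57 in KO. The markers of dendritic and lymphoid cells, among them cells that carry class II molecules, had negative mean responses too. Of 9 tested dendritic cell markers 3 fell and 0 rose on average, with a mean response of -0.37 in WT and -0.40 in KO, and of 7 tested lymphoid markers 4 fell and 0 rose, with -0.69 and -0.47. The 10 dendritic cell markers summed to a CPM of 109.7 to 120.4 in WT viable, 99.3 to 106 in WT necrotic, 118 to 133 in KO viable and 116 to 125 in KO necrotic, and the 12 lymphoid markers to a CPM of 60.3 to 69.9 in WT viable, 44.4 to 61.8 in WT necrotic, 78.2 to 93.6 in KO viable and 53.7 to 57.9 in KO necrotic, with no marker of either list at 0 in all 12 libraries. Their part in the class II responses was not tested. H2-Ab1, the beta chain of the class II molecule I-A (chromosome 17, 34257689 to 34269419, forward strand), had a CPM of 62.1, 67.0 and 58.5 in WT viable, 40.9, 48.4 and 38.6 in WT necrotic, 66.1, 61.3 and 62.0 in KO viable and 30.5, 33.1 and 34.2 in KO necrotic. Viable libraries of the genotypes overlapped, and the KO necrotic libraries stood below all others. H2-Ab1 fell in both genotypes, with responses of -0.55 (SE 0.078, adjusted p = 0.000873) in WT and -0.96 (SE 0.080, adjusted p = 4.09e-05) in KO, and the interaction was -0.40 (95% interval -0.64 to -0.17). The invariant chain Cd74 had a CPM of 206, 205 and 178 in WT viable, 139.7, 169 and 135 in WT necrotic, 205, 163 and 183 in KO viable and 105, 102 and 103 in KO necrotic, with an interaction of -0.42 (95% interval -0.69 to -0.16), and H2-Aa had an interaction of -0.31 (95% interval -0.57 to -0.04). H2-Ab1 and Cd74 passed without the filter under a robust spread, at adjusted p of 0.0133 and 0.00109, and H2-Aa did not.

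Genes of inflammation and the oxidative stress response lay mostly on the lower side. Inflammatory mediators had a median interaction of -0.253 over 11 genes, with 9 lower, and 4 lower at an unadjusted p under 0.05 (3.54% of all genes). The median was -0.119 to -0.159 when WT viable replicate 1 or 2, WT necrotic replicate 1, KO viable replicate 3 or KO necrotic replicate 1 was left out. The cytokine Il1b was low, with a CPM of 2.31, 2.28 and 2.19 in WT viable, 2.65, 1.67 and 3.23 in WT necrotic, 2.20, 2.06 and 2.96 in KO viable and 1.42, 1.46 and 1.75 in KO necrotic, and its WT libraries overlapped while its KO necrotic libraries lay under the KO viable ones. The lipocalin Lcn2 and the interleukin 1 antagonist Il1rn had interactions of -0.28 and -0.25. NRF2 targets had a median of -0.0794 over 17 genes, 6 higher and 11 lower. It was -0.0174, with 8 higher and 9 lower, without WT viable replicate 2, -0.0410 without KO viable replicate 1, and -0.0446 with length and GC trends removed. The haem oxygenase Hmox1 rose in WT by 0.41 (SE 0.058, adjusted p = 0.000942) and responded by 0.14 (SE 0.058, adjusted p = 0.182) in KO. It had a CPM of 367, 315 and 342 in WT viable, 434, 466 and 457 in WT necrotic, 409.7, 389 and 368 in KO viable and 423, 433 and 426 in KO necrotic, with no overlap between viable and necrotic in either genotype, and an interaction of -0.27 (95% interval -0.45 to -0.09). The glutathione transferase Gstm1 had -0.34 (95% interval -0.55 to -0.13). Among 11 alternative activation genes 9 were lower and 2 higher, with a median of -0.171, which was -0.0988 without WT viable replicate 2 and -0.0921 without WT necrotic replicate 2. The mean interaction of the list was 0.00821 (SE 0.150), on the other side of 0 from its median. The member with the highest interaction was Retnla, a resistin-like secreted protein. Retnla was low, with a CPM of 0.556 to 1.78 over the 6 WT libraries, 0.383, 0.182 and 0.121 in KO viable and 0.870, 0.416 and 1.48 in KO necrotic. Its KO viable libraries stood below the other 9, and the WT groups overlapped. In KO viable replicates 2 and 3 it lay at the floor of 3 counts, which was 0.183 and 0.123 CPM. The fitted interaction of Retnla thus rests on few counts. Its interaction was 1.88 (95% interval 0.29 to 3.48) at an unadjusted p of 0.0235. It was the single member of the list higher at an unadjusted p under 0.05. In that list the lectin Clec10a rose by 0.39 in WT, its KO response was 0.07, and the interaction was -0.32 (95% interval -0.54 to -0.10).

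Macrophage and neutrophil markers lay mostly on the same side, and dendritic cell markers did not. All 13 tested macrophage markers were lower, with a median of -0.109 and 2 at an unadjusted p under 0.05 (3.54% of all genes), among them Lyz2 (-0.18) and Csf1r (-0.18). Without WT viable replicate 2 the median was -0.0541, with 4 higher and 9 lower, and without KO viable replicate 3 it was -0.0708. The 14 macrophage markers summed to a CPM of 21246 to 23705 in WT viable, 24950.4 to 25056 in WT necrotic, 23596 to 24995 in KO viable and 24038 to 24701 in KO necrotic. Of 13 neutrophil and precursor markers 9 were lower, and 6 were lower at an unadjusted p under 0.05 (3.54% of all genes). The collagenase Mmp8 had a CPM of 209, 189 and 183 in WT viable, 299, 250.4 and 211 in WT necrotic, 271, 279.8 and 257 in KO viable and 276, 270.3 and 268 in KO necrotic. The KO libraries of Mmp8 stood at one level in both supernatants, within the range of WT necrotic, and its interaction was -0.38 (95% interval -0.65 to -0.11). The median of the neutrophil list was -0.190, and -0.112 without WT necrotic replicate 2. Of the 9 dendritic cell markers 5 were higher and 4 lower, with a median of 0.0138, whose sign turned in 7 of the alternatives. Of the 8 mast cell and basophil markers, Mcpt4 and Tpsb2 were at 0 in all 12 libraries. The 5 tested had a median of -0.301, the lowest of the 34 lists, with 4 lower and 1 higher. None of these markers was kept by the 5 CPM filter. The part of these markers in the interactions of MHC class II, Fc receptor and inflammatory genes was not tested.

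Genes of oxidative phosphorylation and the cell cycle lay mostly on the higher side. The 74 nuclear genes of oxidative phosphorylation had a median interaction of 0.115, with 58 higher and 16 lower. At an unadjusted p under 0.05, 17 were higher and 1 lower (3.98% and 3.54% of all genes). On average 60 of the 74 rose and 0 fell (9.49% and 9.93% of all genes), and 27 passed upward in WT and 49 in KO (4.81% and 4% of all genes), with median responses of 0.15 and 0.28. The complex I subunit gene Ndufa9 had a CPM of 111, 102 and 102 in WT viable, 113, 111 and 109.8 in WT necrotic, 84.8, 86.0 and 89.8 in KO viable and 103, 106 and 108 in KO necrotic. Its KO viable libraries were below all others, and its KO necrotic libraries lay within the range of WT viable. The summed level of the list was a CPM of 15164 to 16555 in WT viable, 16738 to 17468 in WT necrotic, 13672 to 13872 in KO viable and 15780 to 16432 in KO necrotic. The 12 mitochondrially encoded genes tested had a median of 0.230, with 11 higher. The share of mitochondrial counts per library was 2.34% to 2.55% in WT viable, 2.43% to 2.56% in WT necrotic, 2.41% to 2.72% in KO viable and 2.72% to 2.95% in KO necrotic, so that KO necrotic lay above all WT libraries. The interaction correlated with the GC content of genes (Spearman's rho -0.181 over 14110 genes), and with length and GC trends removed the median of the nuclear list was 0.0814 and that of the mitochondrially encoded list 0.138, with 7 higher and 5 lower. Without WT viable replicate 1 the median of the nuclear list was 0.0341, and without KO viable replicate 1 that of the mitochondrially encoded list was 0.150. The 17 genes of the TCA cycle, also a mitochondrial pathway, were split into 9 higher and 8 lower at a median of 0.00873, whose sign turned when any of 3 libraries was left out. The 29 cell cycle genes had a median of 0.0902, with 25 higher and 4 lower. The lowest median over the left-out libraries was 0.0631, and the split reached 18 higher and 11 lower among the alternatives. Against the mean of WT viable, the list's mean log2 level was -0.113 to -0.0656 in KO viable. It was -0.223 to -0.0999 in WT necrotic and -0.224 to -0.128 in KO necrotic. In WT 11 of the 29 genes fell (4.5% of all genes did), and in KO 1 fell (3.43%). Plk1, a mitotic kinase, fell in WT, with a response of -0.24, and its KO response was -0.03, with an interaction of 0.21 (95% interval 0.05 to 0.37).

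The osteoclast genes themselves lay on both sides of 0. Of 31 tested genes of osteoclast differentiation and resorption, 21 rose and 2 fell on average (9.49% and 9.93% of all genes), with median responses of 0.25 in WT and 0.22 in KO. The interaction was higher for 17 and lower for 14, its median was 0.0185, and the sign of that median turned when any of 3 WT libraries was left out. Acp5, the tartrate-resistant acid phosphatase, had a CPM of 4659, 4283 and 4430.2 in WT viable, 6257, 6588 and 6133 in WT necrotic, 4110.1, 4073 and 3909.9 in KO viable and 5296, 5224 and 5344 in KO necrotic. The necrotic libraries exceeded the viable ones in both genotypes without overlap, and the KO libraries lay below the WT libraries of the same supernatant. Acp5 rose by 0.51 (SE 0.042, adjusted p = 1.25e-05) in WT and 0.39 (SE 0.042, adjusted p = 0.000104) in KO, and its interaction was -0.11 (95% interval -0.24 to 0.01). The summed osteoclast list stood at a CPM of 24556 to 25050.1 in WT viable, 29771 to 30093 in WT necrotic, 22739 to 23125 in KO viable and 26715 to 27908 in KO necrotic. The 17 V-ATPase genes, whose pump acidifies the resorption space, rose in 15 cases (9.49% of all genes) and had a median interaction of 0.0185, whose sign turned when any of 4 libraries was left out. The lysosome list was lower in 21 of 23 genes at a median of -0.0849, which was -0.0433 with length and GC trends removed. The 31 interferon-stimulated genes, of which 28 fell on average (9.93% of all genes), had a median of -0.0970, whose sign turned without WT viable replicate 1 or KO viable replicate 3.

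**Figure D5:**
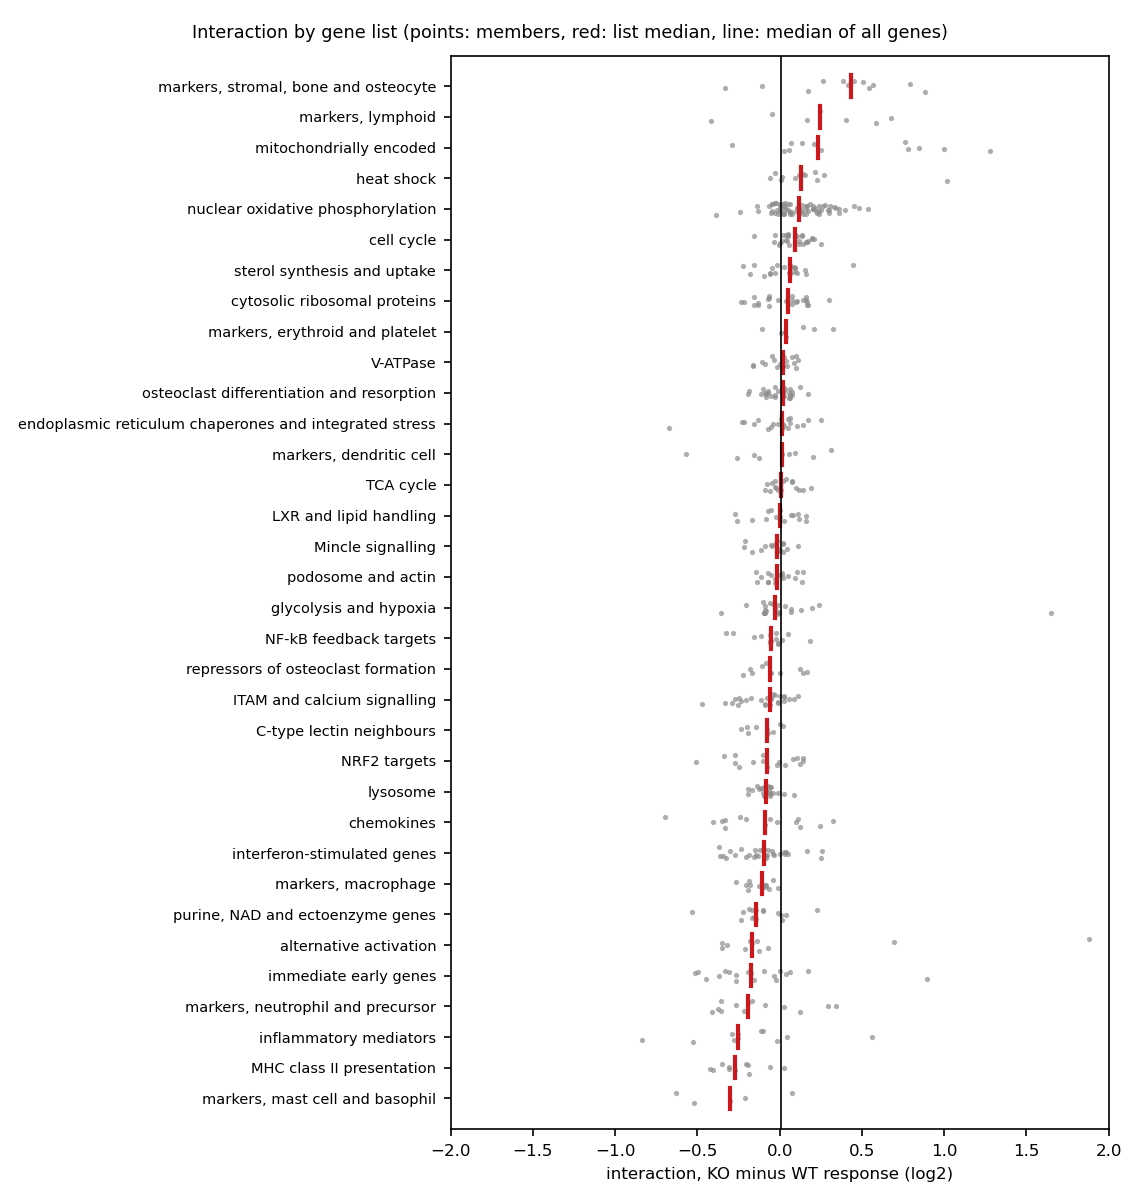
Interaction (KO minus WT response, log2) of each tested member (points) of 34 gene lists, ordered by the list median (red bars), with the median of all genes as a line. Stromal, lymphoid, mitochondrially encoded, heat shock, oxidative phosphorylation and cell cycle lists lie furthest to the right. Mast cell and basophil, MHC class II, inflammatory and neutrophil lists lie furthest to the left, while the osteoclast list is centred near the line.

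Genes that differed between the genotypes held a share of small interaction p close to that of all genes. The average genotype effect called 2899 genes (20.5%), 10.7% of all genes being higher and 9.74% lower in KO, and 7.35% of the 2899 had an interaction at an unadjusted p under 0.05, against 7.52% of all genes. The count was 1885 without KO necrotic replicate 1. Of the 2899, 1004 were also called in the average response, and 10.1% of those reached that p. Their nearer background is the average response itself, where 250 of all 2749 genes reached it. Besides Clec4e, the largest named differences were Cnbd2 at -3.19 (SE 0.072, adjusted p = 8.97e-14) and Wdfy1 at -2.23 (SE 0.040, adjusted p = 5.12e-15), lower in KO, and Ighg2b at 2.40 (SE 0.15, adjusted p = 6.76e-08), Igkc and Wwc2, higher in KO. The interaction intervals of all 6 included 0, for example -0.15 (95% interval -0.32 to 0.01) for Wdfy1.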

How the data were processed

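The authors deposited whole-number read counts per Ensembl gene for the 12 libraries in a single table. Per the labels' protocols, libraries were built with a NEBNext Ultra kit and sequenced as paired ends. Per the submitters' processing notes, CASAVA, HISAT2 2.0.5 and HTSeq 0.6.1 were used with GRCm38; the strand setting of the counting is not given in the sources used here. Symbols and positions came from GENCODE M21 (GRCm38), which did not match 495 of the 46983 identifiers.

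Groups came from the genotype and treatment labels. In R 4.3.3, edgeR 4.0.16 kept genes by filterByExpr, scaled libraries by TMM and fitted 4 group means to all 12 libraries with a quasi-likelihood model (8 residual degrees of freedom). The interaction, both responses, their average and the average genotype effect were tested as contrasts, with Benjamini-Hochberg adjustment over all 14153 genes. Standard errors and 95% intervals were derived from the same test. The code was tested on simulated counts. Counts from 16382366 per library give a floor of 3 counts at 0.183 CPM or less. Intervals cover the spread between libraries only.

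Alternatives were DESeq2 1.42.0, limma 3.58.1 voom, other scaling, other filters, a replicate block, removal of length and GC trends, thinning of the deepest library and leaving out each library. The fits without a filter under a robust spread or voom were added after seeing the data. Genes were named by rule. These were Clec4e, the Mincle signalling list and the 10 smallest interaction p per direction at 1 CPM or more. The 8 largest average responses and 3 largest genotype effects per direction at 5 CPM or more were added. From each list, up to 3 genes with the smallest interaction p were named too. The comparison, gene lists and rules were chosen with earlier results of these data known.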

Additional observations from a re-analysis of the deposited data

How the results depend on the processing

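For the interaction, changes of scaling, tool, filter to 5 CPM, length and GC trends, depth of the deepest library and each left-out library gave 0 called genes, with the smallest adjusted p, 0.0766, without WT necrotic replicate 1 and unadjusted shares of 5.15% to 10.96% over the left-out libraries. Without a filter the interaction called 209 genes (147 higher, 62 lower), and 32 list members. In that fit the prior degrees of freedom were infinite, against 7.38 with the filter, so that every gene took the spread of the trend. A robust estimate gave 46 genes and 9 list members, of which 45 genes had an unadjusted p under 0.05 with the filter, and limma voom without a filter gave 0.

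Whether the same replicate number pairs libraries is not given by the labels and was not settled here. Same-numbered libraries of different groups had correlations of -0.393 to 0.195 between their deviations, 4 of 18 over 0.1. For differently numbered libraries these were -0.292 to 0.298, 11 of 36 over 0.1. The mean levels of the inflammatory mediator, chemokine and immediate early lists were highest in replicate 3 in each of the 4 groups. With replicate as a block, 0 interactions, 2596 average responses, 1231 WT responses, 947 KO responses and 2868 genotype effects were called.

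Fitted on its own 6 libraries, the WT response called 359 genes and the KO response 1820, against 1318 and 1052 with a shared spread. The KO response called 686 genes in limma voom without a filter. Leaving out 1 library gave 385 (without WT viable replicate 2) to 2015 (without WT viable replicate 1) WT genes, 383 (without KO necrotic replicate 3) to 1277 KO genes, 1929 to 3380 average responses and 1885 to 3228 genotype effects. The mean interaction of the 2749 responders, main value -0.0195, ranged from -0.0459 without WT viable replicate 1 to -0.00136 without WT viable replicate 2. The cause of these shifts was not tested. Depth limits genes under 1 CPM, whose intervals are wide.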

Other observations

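Several lists not described so far had medians on 1 side under every alternative run. Immediate early genes had a median interaction of -0.176 over 19 genes, 14 of them lower, with a range of -0.336 to -0.00115 over the left-out libraries. The 16 genes of purine signalling, NAD and ectoenzymes had a median of -0.144, with 12 lower, and -0.0843 without WT viable replicate 2, although Cd38 rose in both genotypes. The 12 heat shock genes had a median of 0.127, with 10 higher, and 0.0709, with 8 higher and 4 lower, without WT necrotic replicate 2. The 12 tested stromal, bone and osteocyte markers had a median of 0.433, with 10 higher and 2 lower, and its range over the left-out libraries was 0.00308 to 0.761. No member of these lists passed for the interaction with the filter on low counts, and the lists were not tested. The immediate early gene Zfp36 passed in an edgeR fit without that filter.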
